A study of Caenorhabditis elegans with 14 samples.

Results

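The yolk protein genes of *C. elegans*, *vit-1* to *vit-6*, and *rme-2*, the gene of the oocyte yolk receptor, were examined in whole worms in which *anc-1* was knocked down. The 7 genes were taken by name, and all 7 were listed in the expression tables of both strains, out of 12483 genes listed in either table. CEL-Seq2, which sequences the 3′ ends of polyadenylated RNA and leaves the rest of a transcript unread, was applied to wild-type worms (strain N2) and to strain AM140 (*unc-54*p::Q35-YFP), in which 35 glutamines fused to YFP are expressed from a myosin promoter in the body-wall muscles (hereafter polyQ35-YFP worms). From hatching, both strains were fed HT115 bacteria that carried either the empty RNAi vector (EV) or the *anc-1* RNAi construct. All worms were kept at 20 °C, their progeny were washed away daily and they were collected on day 6 of adulthood, giving 3 EV and 3 *anc-1* RNAi samples of wild-type worms and 4 and 4 of polyQ35-YFP worms. The RNAi was fed to whole animals and the RNA came from all tissues together, so fewer cells of a type and less RNA per cell cannot be told apart.

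Yolk is a lipoprotein that the adult hermaphrodite intestine makes and feeds to the germline. The *vit* genes encode large precursors related to vertebrate vitellogenins and apolipoprotein B, which are loaded with lipid in the intestine, released into the body cavity and taken up by growing oocytes. RME-2, a member of the LDL receptor family, binds yolk at the oocyte surface and carries it inward by clathrin-mediated endocytosis. The *vit-2* product belongs to the class of yolk protein named YP170B, *vit-3*, *vit-4* and *vit-5* encode the YP170A class, and the product of *vit-6* is cleaved into 2 smaller yolk proteins. In ageing hermaphrodites yolk production outlasts egg laying, and yolk collects in the body cavity.

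By the files' coordinates (WBcel235), 5 of the *vit* genes lie on chromosome X. These are *vit-1* at 7727901 to 7733308 on the plus strand, *vit-2* at 5101032 to 5106173 on the plus strand and *vit-5* at 3403471 to 3408605 on the plus strand. The others are *vit-4* at 3558839 to 3563974 and *vit-3* at 3567397 to 3572549, neighbours on the minus strand with 3422 bases between them. *vit-6* lies on chromosome IV at 8261145 to 8266463 and *rme-2* on chromosome IV at 5469995 to 5473175, both on the plus strand. The coding sequences of *vit-3*, *vit-4* and *vit-5* have the same length of 4809 bases in the reference annotation (Ensembl), those of *vit-2*, *vit-1* and *vit-6* 4839, 4848 and 4953 bases, and the longest of *rme-2* 2775 bases. *vit-3*, *vit-4* and *vit-5* are close copies of each other, as are *vit-1* and *vit-2*. Reads that fit more than 1 copy could be assigned to either or left uncounted, so the values of single copies are uncertain to that degree. *vit-2* also overlaps *C42D8.9* on the opposite strand by 15 bases, and whether the counting used strand was not stated.

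The libraries held 4934531 to 11563506 reads on listed genes. The knocked-down gene itself fell from a mean normalized read count of 315 to 51.1 in wild-type worms and from 346 to 37.5 in polyQ35-YFP worms, with no overlap between treatments. EV replicate 4 of the polyQ35-YFP worms stood apart from the other EV replicates of its strain, with a chi-square per degree of freedom of 30.1 to 63.0 against them and 14.4 to 21.0 among the other 3. *anc-1* RNAi replicate 4 of this strain stood apart as well, at 17.6 to 23.6 against 6.48 to 10.6 among the other 3 of its group.

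The *vit* genes were among the abundant transcripts in every sample. Together they took 1.20% to 1.49% of the reads on listed genes in wild-type EV worms, and 1.70% to 2.23% in wild-type *anc-1* RNAi worms, ranges that did not overlap. In polyQ35-YFP worms, EV replicates 1 to 4 had shares of 1.39%, 0.949%, 0.922% and 0.901%, while the *anc-1* RNAi libraries had 1.44%, 1.34%, 2.02% and 0.936%. These ranges overlapped, through the high EV replicate 1 and the low *anc-1* RNAi replicate 4, while the share was higher under *anc-1* RNAi in 4 of 4 same-numbered pairs. *vit-5* alone gave 45.5% to 56.0% of all *vit* reads.

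Per kilobase of exon, the order of the normalized read counts in wild-type EV worms was *vit-5*, *vit-2*, *vit-4*, *vit-3*, *vit-6*, *vit-1* and *rme-2*. *vit-5* stood at 8213 ± 965 per kb (SD, n = 3) and the next, *vit-2*, at 2489 ± 156. *vit-2*, *vit-4* (2396 ± 355) and *vit-3* (2297 ± 288) overlapped each other. *vit-6* was lower, at 1696 ± 165, without overlap with its neighbours in the order. At the bottom, *vit-1* (207 ± 38.7) and *rme-2* (204 ± 44.4) overlapped. In each of the 4 groups *vit-5* was at the top with no overlap, and *vit-1* and *rme-2* were the lowest 2. Because CEL-Seq2 reads transcript ends, a longer transcript does not give more reads. Without division by length *vit-5* was again first in each group, and *rme-2* was last in each. Per kilobase, *vit-1* was the last in the polyQ35-YFP groups. In wild-type EV worms the undivided counts of *vit-1* (844 to 1237) and *rme-2* (479 to 726) did not overlap.

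In wild-type worms, *vit-2*, *vit-3*, *vit-4*, *vit-5* and *vit-6* rose after *anc-1* RNAi, by 1.26-fold to 1.56-fold in the ratio of mean normalized read counts, whereas *vit-1* and *rme-2* had ratios of 1.01 and 0.951 and did not pass the test. Thus 5 of the 7 genes were called higher and 0 lower, where 7.5% of all 12061 genes tested were called higher and 6.13% lower (limma on log2(value + 1), Benjamini-Hochberg adjusted p below 0.05). Counts of members, here and below, are not counts of independent genes, since *vit-2* to *vit-6* moved together from sample to sample. By edgeR, 8.23% of all genes were called higher and 5.59% lower, by DESeq2 6.89% and 6.04%, and both called the same 5 members higher and 0 lower. At an unadjusted p below 0.05, 0 members were lower, against 13.2% of all genes. The plot of normalized read counts by sample shows the values of all 7 genes.

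**Figure D1:**
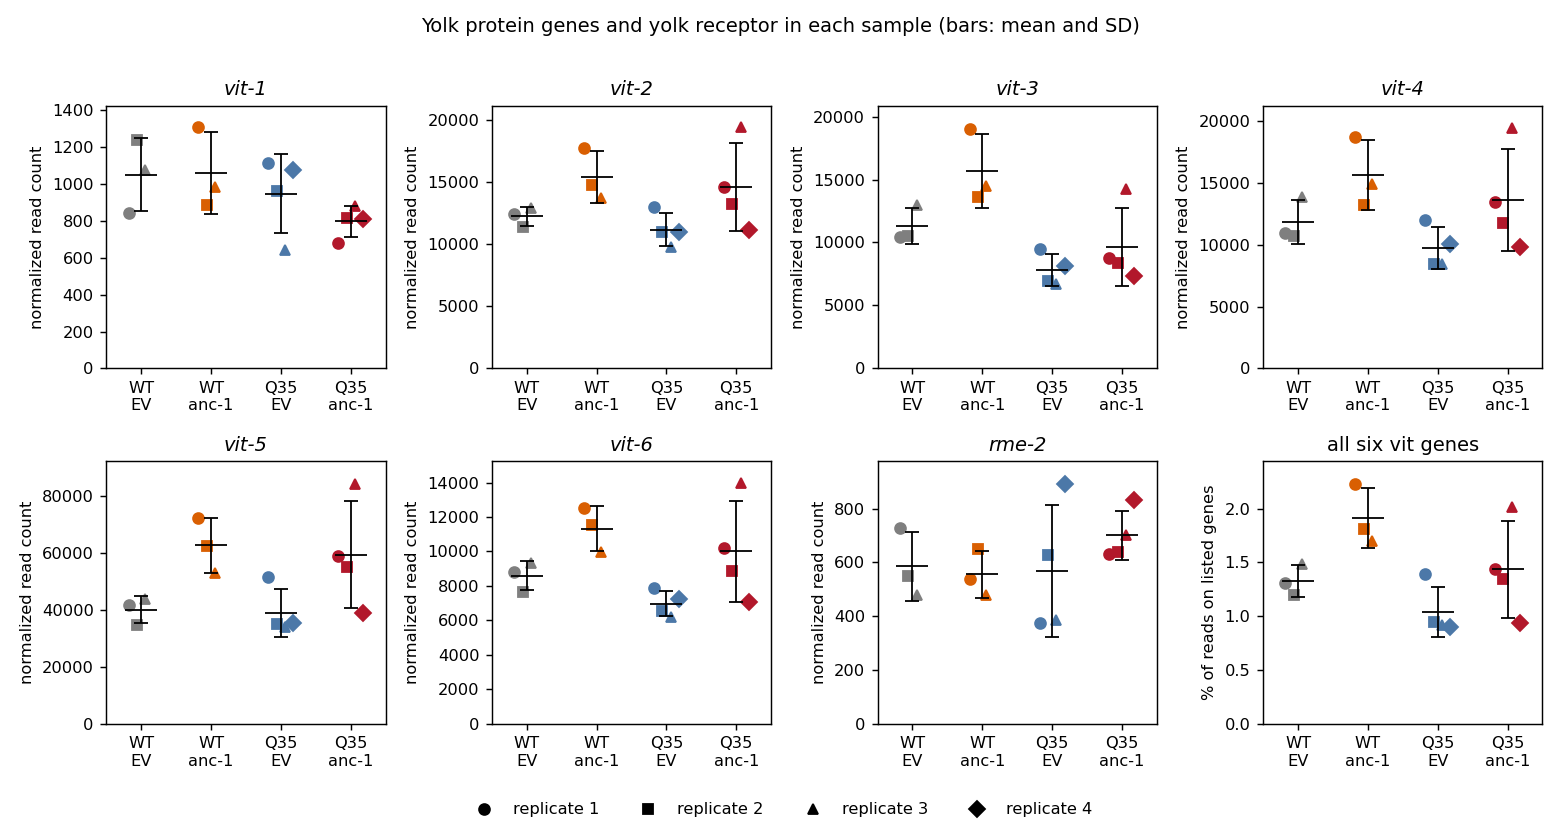
Normalized read counts (reads divided by a DESeq2 size factor) of the 7 genes in each sample, and, in the last panel, the share of reads on listed genes taken by all *vit* genes. Points are samples with the replicate as the marker shape, horizontal bars the mean and error bars the SD (n = 3 wild type, n = 4 polyQ35-YFP, labelled Q35); *vit-5* lies at 34672 to 43569 in wild-type EV worms and at 52973 to 72140 in wild-type *anc-1* RNAi worms. The tables of the 2 strains were normalized separately, so levels are compared only within a strain.

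*vit-5*, one of the YP170A genes, showed the largest difference of the 7. Its normalized read count was 41752, 34672 and 43569 in wild-type EV replicates 1 to 3 and 72140, 62367 and 52973 in *anc-1* RNAi replicates 1 to 3. All *anc-1* RNAi samples lay above all EV samples. The log2 fold change was 0.64 ± 0.11 (SE), with an adjusted p of 7.92e-04 in limma, and it kept its call when any of the 6 samples was left out.

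The neighbours *vit-3* and *vit-4*, the other YP170A genes, moved by less. *vit-3* had counts of 10460, 10521 and 12943 under EV and 19036, 13574 and 14481 under *anc-1* RNAi, again with no overlap (log2 fold change 0.46 ± 0.12, adjusted p = 0.0134 in limma). *vit-4* had 10976, 10665 and 13845 under EV and 18740, 13240 and 14928 under *anc-1* RNAi (0.40 ± 0.12, adjusted p = 0.0375 in limma). Here *anc-1* RNAi replicate 2 fell below EV replicate 3, so the groups overlapped.

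*vit-2*, the YP170B gene, had counts of 12490, 11425 and 12926 under EV and 17805, 14753 and 13750 under *anc-1* RNAi. Its groups did not overlap, and its log2 fold change was the smallest of the 5 calls (0.32 ± 0.10, adjusted p = 0.0394 in limma). *vit-6*, which encodes the precursor of the smaller yolk proteins, had 8780, 7677 and 9314 under EV and 12525, 11507 and 9947 under *anc-1* RNAi, with no overlap (0.40 ± 0.10, adjusted p = 0.0137 in limma). Of the 7 genes, 4 thus had *anc-1* RNAi samples all above the EV samples, against 15.8% of all genes tested.

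*vit-1*, the close copy of *vit-2*, was expressed at a far lower level and had counts of 844, 1237 and 1074 under EV and 1309, 888 and 981 under *anc-1* RNAi. Its log2 fold change was 0.01, with a 95% interval of -0.30 to 0.32 (adjusted p = 0.980 in limma). The receptor gene *rme-2* had 726, 549 and 479 under EV and 539, 652 and 479 under *anc-1* RNAi (log2 fold change -0.06, interval -0.38 to 0.25, adjusted p = 0.832 in limma). For both genes the groups overlapped.

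The calls for *vit-2*, *vit-3*, *vit-4* and *vit-6* rested on few samples. In *anc-1* RNAi replicate 1 each of these 4 genes was at its highest, and without it only *vit-5* was called, the adjusted p of the others being 0.0751 to 0.203. Without EV replicate 2 only *vit-5* was called, and without EV replicate 1 *vit-5* and *vit-6* were. Leaving out EV replicate 3 or *anc-1* RNAi replicate 2 cost the call of *vit-2*, and leaving out *anc-1* RNAi replicate 3 that of *vit-4*. A limma fit with no variance trend called none of the 7 (adjusted p 0.0964 for *vit-5*).

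In polyQ35-YFP worms the same 5 *vit* genes had higher means under *anc-1* RNAi, by 1.24-fold to 1.52-fold, but none passed the test. The groups overlapped for each of the 7 genes, where 3.39% of all genes lay wholly higher under *anc-1* RNAi and 5.94% wholly lower. Of the 7 genes, 0 were called in either direction, where 0.772% of all 12173 genes tested were called higher and 1.47% lower (limma). edgeR, which called 0.657% of all genes higher and 1.39% lower, and DESeq2, which called 1.67% and 3.27%, also called 0 members. At an unadjusted p below 0.05, 4 members (*vit-2*, *vit-4*, *vit-5* and *vit-6*) were higher and 0 lower, against 7.44% and 8.08% of all genes. The spread of *vit-2* to *vit-6* between replicates was wider than in wild-type worms under both treatments; under *anc-1* RNAi the SD of *vit-5* was 31.7% of its mean, against 15.3% in wild-type worms. That of *vit-1* and *rme-2* was wider under EV and narrower under *anc-1* RNAi.

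In these worms *vit-5* had counts of 51592, 34940, 33799 and 35234 in EV replicates 1 to 4 and 58925, 54909, 84060 and 38788 in *anc-1* RNAi replicates 1 to 4. *anc-1* RNAi replicate 3 was the highest and replicate 4, a library that stood apart, the lowest of its group, and EV replicate 1 stood above the other EV samples. The log2 fold change was 0.57 ± 0.22 (adjusted p = 0.209 in limma), and *anc-1* RNAi was higher in 4 of 4 same-numbered pairs. With the replicate number as a block, which pairs an EV and an *anc-1* RNAi sample of 1 repeat, *vit-5* was the only one of the 7 to be called (adjusted p = 0.0497 in limma), and 3.83% of all genes were called higher.

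*vit-6* followed the same samples, with 7859, 6559, 6204 and 7239 under EV and 10189, 8866, 13974 and 7056 under *anc-1* RNAi (log2 fold change 0.49 ± 0.18, adjusted p = 0.206 in limma). Without both samples of replicate 4, *vit-5* and *vit-6* were called, at 0.72 (adjusted p = 0.0285) and 0.66 (adjusted p = 0.0206 in limma). *vit-2* had 13014, 10983, 9796 and 10985 under EV and 14632, 13253, 19483 and 11135 under *anc-1* RNAi (0.36 ± 0.17, adjusted p = 0.319 in limma). *vit-2* was higher in 4 of 4 pairs and *vit-6* in 3 of 4.

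*vit-4* had counts of 12031, 8412, 8432 and 10082 under EV and 13448, 11795, 19443 and 9853 under *anc-1* RNAi (0.46 ± 0.19, adjusted p = 0.276 in limma). Its neighbour *vit-3* had 9453, 6972, 6664 and 8161 under EV and 8728, 8345, 14211 and 7355 under *anc-1* RNAi (0.27 ± 0.19, adjusted p = 0.562 in limma). *vit-3* was higher in 2 of 4 pairs and *vit-4* in 3 of 4. *vit-1* had 1112, 961, 641 and 1074 under EV and 680, 815, 881 and 813 under *anc-1* RNAi, and its estimate was negative (-0.22 ± 0.17, adjusted p = 0.611 in limma).

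*rme-2* varied more than any *vit* gene between the EV samples of this strain. EV replicates 1 to 4 had counts of 373, 627, 384 and 892 and *anc-1* RNAi replicates 1 to 4 had 633, 638, 700 and 831. EV replicate 4, a library that stood apart, had the highest *rme-2* count of all samples of the strain. The log2 fold change was 0.39 ± 0.24 (adjusted p = 0.489 in limma) with that library and 0.63 ± 0.18 (adjusted p = 0.0424 in limma) without it. Without both samples of replicate 4 it was 0.55 ± 0.18 and was not called (adjusted p = 0.0868 in limma). Without EV replicate 4 alone, none of the *vit* genes was called, with adjusted p of 0.113 (*vit-6*) to 0.667 (*vit-1*) in limma.

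**Figure D2:**
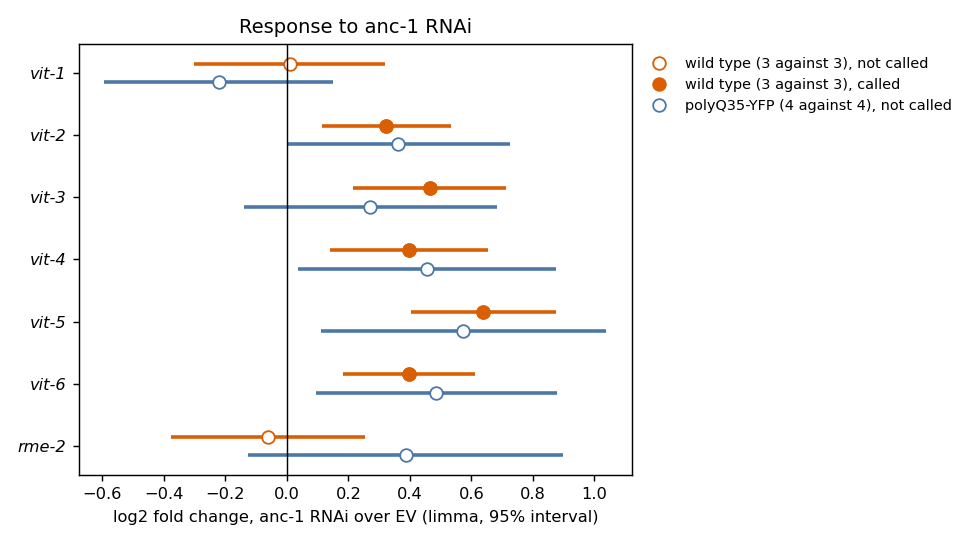
Log2 fold change of *anc-1* RNAi over EV for the 7 genes in wild-type worms (orange, 3 against 3 samples) and polyQ35-YFP worms (blue, 4 against 4), from limma on log2(value + 1). Points are estimates, bars 95% intervals and filled points an adjusted p below 0.05; 5 filled points are seen in wild-type worms and none in polyQ35-YFP worms, with intervals that overlap between the strains for each gene.

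That a gene was called in one strain and not in the other does not show that the strains differ, so the difference between the responses was tested as an interaction over the 11751 genes listed in both tables. None of the 7 genes was called (adjusted p = 0.999 for each in limma). By edgeR and by DESeq2 none was called either. The lowest unadjusted p of the 7 was 0.198, where 1.1% of all genes were higher and 2.37% lower at an unadjusted p below 0.05. Of all genes, limma, edgeR and DESeq2 each called 0.00851% with a higher response in polyQ35-YFP worms, and 0%, 0% and 0.00851% with a lower one. For *vit-5* the response in polyQ35-YFP worms minus that in wild-type worms was -0.07 on the log2 scale, with a 95% interval of -0.68 to 0.55. For *rme-2* it was 0.45, with an interval of -0.26 to 1.15. In the other 5 genes the estimate ranged from -0.23 (*vit-1*) to 0.09 (*vit-6*). The design had little power for such a difference: in simulated data, 32% of the genes given a 2-fold difference between strains were recovered. Of those given a 1.5-fold difference, 3% were recovered.

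The *vit* genes other than *vit-1* moved as a block from sample to sample. Over the 14 samples, each centred on the mean of its strain, the log2 values of *vit-2* to *vit-6* correlated with each other at Pearson's r of 0.900 to 0.981 (10 pairs) and Spearman's rho of 0.873 to 0.996. Without the 2 samples farthest from the median, r was 0.763 to 0.965, and after centring on each of the 4 groups, which removes the treatment, it was 0.873 to 0.981. *vit-1* correlated with them at -0.01 to 0.31 and, after centring on the groups, at 0.27 to 0.55. *rme-2* correlated with the *vit* genes at -0.02 to 0.17, and at -0.28 to 0.13 after centring on the groups. These are descriptions over samples that share libraries. Reads shared between *vit-3*, *vit-4* and *vit-5* can add to their likeness, and the part of such reads was not tested. The map of deviations shows the block.

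**Figure D3:**
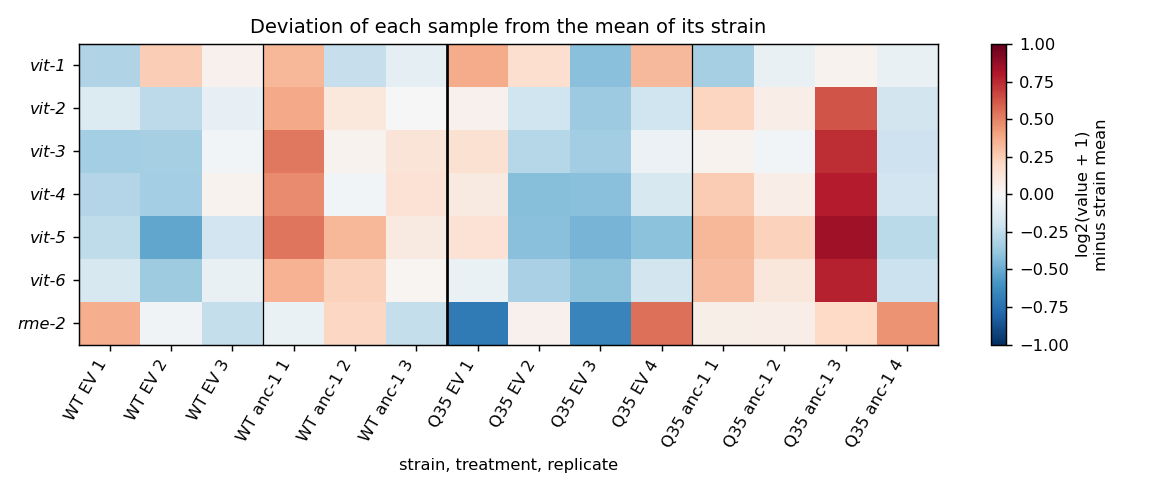
Deviation of each sample from the mean of its strain, in log2(value + 1), for the 7 genes (rows) and 14 samples (columns, labelled by strain, treatment and replicate; WT, wild type; Q35, polyQ35-YFP). Red is higher and blue lower; *vit-2* to *vit-6* share their high samples, wild-type *anc-1* RNAi replicate 1 and polyQ35-YFP *anc-1* RNAi replicate 3 (0.85 for *vit-5* in the latter), while *vit-1* shares the first of these (0.33) and *rme-2* is highest in other samples.

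Within the block the genes did not move by the same factor. The ratio of *vit-5* to *vit-2* reads in a library was 3.03 to 3.37 in wild-type EV worms and 3.85 to 4.23 in wild-type *anc-1* RNAi worms, without overlap. In polyQ35-YFP worms the EV libraries had ratios of 3.18 to 3.96 and the *anc-1* RNAi libraries 3.48 to 4.31, with overlap but higher in 4 of 4 pairs. Such a ratio does not depend on how a library was scaled.

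The ratio of *vit-3* to *vit-4* reads moved in opposite directions in the 2 strains when same-numbered samples were compared. In wild-type worms it was 0.953, 0.987 and 0.935 in EV replicates 1 to 3 and 1.02, 1.03 and 0.970 in *anc-1* RNAi replicates 1 to 3. There it was higher in each pair, but the treatments overlapped. In polyQ35-YFP worms it was 0.786, 0.829, 0.790 and 0.809 in EV replicates 1 to 4 and 0.649, 0.707, 0.731 and 0.746 in *anc-1* RNAi replicates 1 to 4, lower in each pair and with no overlap between treatments. The ratio was lower in each polyQ35-YFP library than in each wild-type library. The difference between strains was not tested, whether the strains were sequenced together was not stated, and reads that fit both copies could enter either count.

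**Figure D4:**
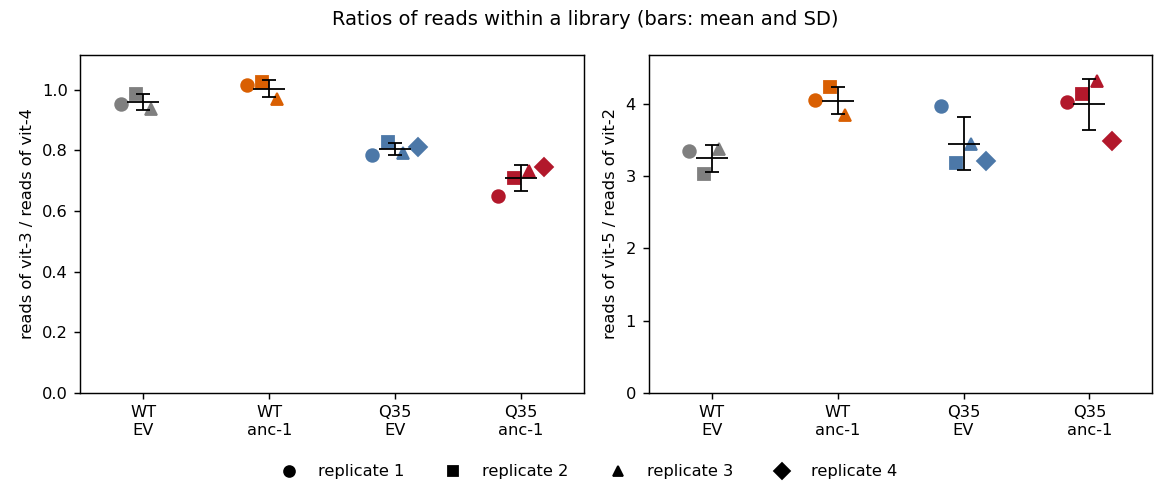
Ratio of *vit-3* to *vit-4* reads (left) and of *vit-5* to *vit-2* reads (right) within each library, by group. Points are samples with the replicate as the marker shape, and bars the mean and SD; on the left the polyQ35-YFP samples (Q35) lie at 0.649 to 0.829 and the wild-type samples (WT) at 0.935 to 1.03.

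The other genes of the yolk pathway were read from lists chosen with earlier results of these data known. Of 22 genes of endocytosis and endosomal recycling, on which yolk uptake relies, 0 were called higher in either strain and 1 was called lower in both, *cav-1*, a caveolin gene expressed in the germline (-0.50, adjusted p = 0.0295 in wild-type worms, and -0.98, adjusted p = 0.0352 in polyQ35-YFP worms, limma). *cav-1* was also on the list of oocyte markers below. For this and the following lists, limma called 7.5% of all genes higher and 6.13% lower in wild-type worms. In polyQ35-YFP worms these shares were 0.772% and 1.47%. The median log2 fold change of the 22 endocytosis genes was -0.11 in wild-type worms and -0.02 in polyQ35-YFP worms, against 0.00 and 0.03 over all genes tested. The *cav-1* call in polyQ35-YFP worms was lost with library totals, with no variance trend and when any 1 of 7 of the 8 samples was left out, but held without EV replicate 4 (-1.19, adjusted p = 7.58e-04 in limma) and without both samples of replicate 4. In wild-type worms it was lost when EV replicate 1 or 2 or *anc-1* RNAi replicate 1 or 2 was left out. Of 8 genes of lipoprotein assembly and export, 1 was called lower in wild-type worms, *sft-4*, a cargo receptor gene of the endoplasmic reticulum (-0.34, adjusted p = 0.0342), and 0 were called in polyQ35-YFP worms (limma), with median log2 fold changes of -0.04 and 0.10. The *sft-4* call was lost when EV replicate 2 or 3 or *anc-1* RNAi replicate 1 or 2 was left out. *dsc-4*, the microsomal triglyceride transfer protein gene that loads lipid onto yolk proteins, was among the genes not called. In wild-type worms its mean normalized read count was 18.4 under EV and 33.5 under *anc-1* RNAi (0.83 ± 0.28, adjusted p = 0.0556 in limma).

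Of 11 regulators of *vit* transcription, 10 were listed, and 1 was called in wild-type worms, *pqm-1*, a zinc finger transcription factor gene of the intestine, which rose from a mean normalized read count of 135 to 204 (0.59, adjusted p = 0.0127 in limma), a call lost on leaving out either EV replicate 2 or the first *anc-1* RNAi sample. With the replicate block *rict-1*, a gene of the TORC2 kinase complex, was also called lower in wild-type worms (-0.30, adjusted p = 0.0371 in limma). None was called in polyQ35-YFP worms with all samples and no replicate block. With the block, 2 were called lower there, *unc-62* (-0.54, adjusted p = 0.0394), a homeobox gene needed for *vit* expression, and *alg-1* (-0.46, adjusted p = 0.0433 in limma), a microRNA Argonaute gene. *unc-62* was also called, with no block, without EV replicate 4 (-0.70, adjusted p = 0.0117 in limma) and without both samples of replicate 4 (-0.68, adjusted p = 0.0191 in limma). *elt-2*, the GATA factor gene of the intestine that binds *vit* promoters, was not called in either strain. The median log2 fold change of the list was -0.05 in wild-type worms and 0.06 in polyQ35-YFP worms.

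The markers of the tissues that make and receive yolk were compared with the members' values. Of 12 intestine markers, 3 were called higher in wild-type worms, *cpr-6* (0.60), *ifb-2* (0.76) and *act-5* (0.67), and 1 in polyQ35-YFP worms, *act-5* (0.78), and none was called lower. Of these 12 markers, 7 had positive estimates in each strain. Over all genes tested, 6081 of 12061 did in wild-type worms and 6568 of 12173 in polyQ35-YFP worms. The median log2 fold changes of the 12 markers were 0.13 and 0.16. In wild-type worms their summed normalized read count lay between 10607 and 10803 in EV samples and between 11321 and 13402 in *anc-1* RNAi samples. The bounds for polyQ35-YFP worms were 9744 and 11786, and 11135 and 13310. The log2 value of *vit-5* and that of this sum correlated over the 14 strain-centred samples at r = 0.755 (rho = 0.741), at 0.879 without the 2 farthest samples, and at 0.441 after centring on the groups. In wild-type worms *cpr-6* had the highest mean of the 12 markers and rose from 2705 to 4127. The likeness was not particular to intestine markers. For *vit-5*, r was -0.757 with the sum of the endocytosis genes and -0.675 with that of the early embryo markers described below. Of 10 body-wall muscle markers, 7 were called higher in wild-type worms and 4 in polyQ35-YFP worms, with medians of 0.60 and 0.48. *vit-5* correlated with their sum at r = 0.613 (rho = 0.631), at 0.795 without the 2 farthest samples and at -0.288 after centring on the groups. In polyQ35-YFP worms the largest mean of any muscle marker was 53290, where the sums of the list were 50479 to 96139. The transgene of this strain is driven by the promoter of *unc-54*, which is on the list. Whether transgene reads entered these counts was not tested. The part of intestine and muscle in the *vit* values was not tested.

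Of 12 oocyte markers, 3 were called lower in wild-type worms (*spn-4*, *oma-1* and *cav-1*) and 1 in polyQ35-YFP worms (*cav-1*), and of 12 RNA-binding and related regulators of oocytes, which share several genes with them, 3 were called lower in wild-type worms (*spn-4*, *pos-1* and *oma-1*) and 0 in polyQ35-YFP worms. Of 10 early embryo markers 6 were listed, and 4 were called lower in each strain. The median log2 fold changes in wild-type and polyQ35-YFP worms were -0.23 and 0.03 for the oocyte markers, -0.26 and -0.04 for the oocyte regulators and -1.47 and -1.26 for the early embryo markers. In wild-type worms the oocyte marker sum lay between 67110 and 80227 in EV samples and between 56759 and 66996 in *anc-1* RNAi samples. The bounds for polyQ35-YFP worms were 62358 and 102866 (79755 without EV replicate 4), and 66344 and 86848. Of 8 epidermis markers, 2 were called higher in wild-type worms, *nhr-25* (1.32, adjusted p = 1.34e-05 in limma) and *dpy-7* (0.81). There 2 were called lower, *col-140* (-0.57) and *col-19* (-0.53). In polyQ35-YFP worms 0 were called (medians 0.94 and 0.06). With the replicate block 2 were called lower in polyQ35-YFP worms, *nhr-25* (-0.73, adjusted p = 0.00614) and *col-140* (-0.72, adjusted p = 0.00760 in limma), and the same 2 were called without EV replicate 4. The estimate of *nhr-25* thus had opposite signs in the 2 strains. The calls of *act-5*, of the 4 early embryo markers and of the 4 muscle markers in polyQ35-YFP worms held without EV replicate 4. Of 10 sperm markers, 4 were listed in wild-type worms and 2 in the polyQ35-YFP strain, with sums of at most 19.4 and 14.3 normalized reads and 0 called.

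*rme-2* varied from sample to sample more like oocyte genes than like the *vit* genes. Its log2 value correlated with the oocyte marker sum at r = 0.769 (rho = 0.714) over the 14 strain-centred samples, at 0.662 without the 2 farthest samples and at 0.947 after centring on the groups. The likeness was not particular to oocyte markers: for *rme-2*, r was 0.839 with the sum of the lipoprotein assembly and export genes, and -0.807 with that of the epidermis markers. Within wild-type worms these were 0.400 and -0.727, and within polyQ35-YFP worms 0.900 and -0.828. EV replicate 4 of the polyQ35-YFP worms had the highest assembly and export sum of its strain (17521). The other checks were not run for these 2 sums. *rme-2* correlated with the sum of 4 other LDL receptor repeat genes at r = 0.963 (rho = 0.934), and at 0.939 without the 2 farthest samples. That sum consisted mostly of *egg-1*, an oocyte surface gene required for fertilization. None of the 4 was called in either strain (medians -0.10 and 0.08). Without EV replicate 4 of the polyQ35-YFP worms, *egg-2* was called higher (0.56, adjusted p = 0.0308) and *lrp-2* lower (-0.73, adjusted p = 0.0442 in limma). EV replicate 4 of the polyQ35-YFP worms, highest in *rme-2*, also had the highest oocyte marker sum (102866), and the part of oocyte RNA in the *rme-2* values was not tested. The plot of *rme-2* against the oocyte markers shows each sample.

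**Figure D5:**
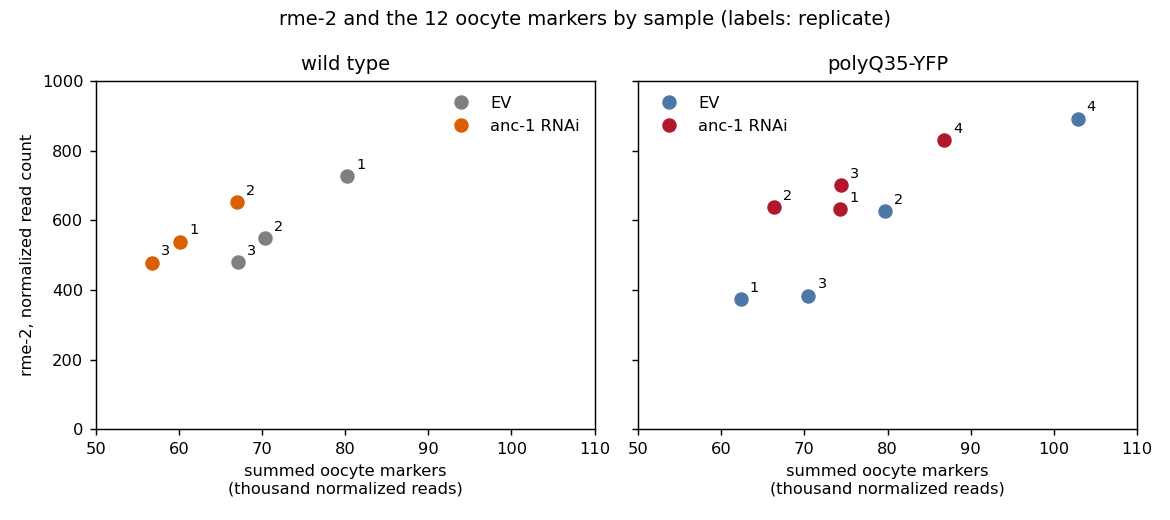
Normalized read count of *rme-2* against the summed normalized read count of 12 oocyte markers for each sample of wild-type worms (left) and polyQ35-YFP worms (right); colours are treatments and numbers replicates, and the horizontal axis does not start at 0. Within each of the 4 groups *rme-2* tended to be higher where the oocyte marker sum was higher, up to 892 in polyQ35-YFP EV replicate 4; across treatments in wild-type worms it did not, since the *anc-1* RNAi samples had lower sums at like *rme-2* counts.

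Among 6470 genes other than the 7 members, with a mean of at least 50 in both strains, the genes whose pattern over the 14 strain-centred samples was most like that of *rme-2* were *pgl-1*, a germ granule gene (r = 0.980), *hrde-1*, a nuclear Argonaute gene of the germline (r = 0.973), and *mrt-1*, a telomere maintenance gene (r = 0.970). The non-member genes most like *vit-2* were *asp-4*, an aspartyl protease gene (r = 0.925), *ctl-2*, a peroxisomal catalase gene (r = 0.924), and *thn-2*, a thaumatin family gene (r = 0.922). The non-member genes most like *vit-6* were *ctl-2* (r = 0.901), *spp-9*, a saposin-like gene (r = 0.893), and *cpz-2*, a cathepsin Z gene (r = 0.890). These correlations were the highest of many and are given as a description.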

How the data were processed

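The authors trimmed the CEL-Seq2 reads with cutadapt 1.12, aligned them to WBcel235 (Ensembl release 36 coding genes with spike-ins) with TopHat2 2.1.1, and counted them with HTSeq 0.6.1 without molecular identifiers, so PCR copies were counted separately. They discarded genes of mean count under 2. Per strain, the authors scaled these counts by the size factors of DESeq2 1.22.2, and the resulting signal values were deposited. Their fold-change, p-value and related comparison columns were not used. Whole reads were recovered from the value of 1 read (100% of values within 0.01).

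The design foresaw counts and edgeR, or limma for normalized values. Thus limma 3.58.1 in R 4.3.3, with a variance trend, was fitted on log2(value + 1), which understates changes of low genes, over all genes of a strain, and for the interaction over all shared genes. edgeR 4.0.16 and DESeq2 1.42.0 on whole reads, the replicate block, library totals, pseudocounts, a filter on low values and omitted samples were alternatives. Levels were not tested between strains.

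All 7 members, at most 4 called genes per list and strain, and the 3 non-member genes most like *rme-2*, *vit-2* and *vit-6* were to be named; *dsc-4*, *elt-2*, *egg-1*, *egg-2*, *lrp-2*, *rict-1*, *nhr-25*, *col-140*, *unc-62* and *alg-1* were added after their values were seen. Members and lists were chosen with earlier results of these data known. The series text places both treatments in each repeat, so same numbers were taken as pairs. The correlation of their deviations from the group means ranged from 0.0491 to 0.0806 for wild-type pairs and from 0.0949 to 0.570 for polyQ35-YFP pairs. Between samples of different numbers it ranged from -0.108 to 0.0353 in wild-type worms and from -0.469 to 0.271 in polyQ35-YFP worms. In the latter only the pair of number 4 (0.570) lay above all of these. Whether replicates were separate cultures was not stated in full, and p-values measure the spread between these samples. In simulated data, 60% of genes changed 1.5-fold were recovered in wild-type worms and 12% in polyQ35-YFP worms. Sequences, promoter motifs and protein identity were not analysed here.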

Additional observations from a re-analysis of the deposited data

Results flagged for a closer look

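In polyQ35-YFP EV replicate 1, *vit-5* had a normalized read count of 51592, against 33799 to 35234 in the other 3 EV samples, a gap beyond the 95% limit of Dixon's test. The *vit* share of reads in the same sample, 1.39% against 0.901% to 0.949%, was also beyond it. Of 18 groups of 4 samples tested, 2 were beyond this limit, where chance gives about 1 in 20. These 2 are not independent, since *vit-5* gave 54.3% of the *vit* reads in this sample. The tests also cover genes that move together, so the comparison with chance is rough. The change of the *vit-3* to *vit-4* read ratio after *anc-1* RNAi was 0.0456 in wild-type worms, with each of 3 pairs higher, and -0.0951 in polyQ35-YFP worms, with each of 4 pairs lower. The difference of -0.141 was not tested.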

How the results depend on the processing

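In wild-type worms the 5 *vit* calls (905 genes called higher and 739 lower in all) held under edgeR, DESeq2, the replicate block, both library totals, both pseudocounts and the filter on low values. Without the variance trend 0 members were called, with 329 genes higher and 155 lower. Leaving out 1 sample gave 1 to 4 members, 633 to 845 genes higher and 349 to 693 lower. There the estimate of *vit-1* ranged from -0.15 to 0.13 and that of *rme-2* from -0.19 to 0.11. In polyQ35-YFP worms (0 members, 94 genes higher and 179 lower), the replicate block gave 1 member, 466 and 524 genes; DESeq2 203 and 398; library totals 32 and 94, and 33 and 92 without the *vit* genes; no variance trend 1 and 6. Without both samples of number 4, 2 members, 325 and 463 genes were called. Leaving out 1 sample gave 0 to 1 members, 19 to 305 and 41 to 535 genes. The replicate block changed no other call of the 7 genes. Of the calls on the lists in polyQ35-YFP worms, those of *unc-27* and *sdz-28* were lost only without the variance trend, while *tbx-37* was lost under 11 of 18 settings, *cav-1* under 10, *unc-15* and *pes-10* under 9, *unc-54* and *act-5* under 6, *tnt-2* under 5 and *vet-2* under 2. For the strain difference (1 gene higher and 0 lower), the block gave 5 genes lower, DESeq2 1 and the omission of number 4 12. Library totals, with or without the *vit* genes, a pseudocount of 0.5, a minimum mean of 10 and no variance trend gave 0 higher, and leaving out 1 sample 0 to 1 higher and 0 to 5 lower. The estimate for *vit-2* was -0.0178 and -0.0206 with library totals, that for *vit-4* -0.00274 with totals without the *vit* genes and that for *vit-5* 0.0801 without number 4. When 1 sample was left out, it ranged from -0.11 to 0.16 for *vit-2*, from -0.13 to 0.20 for *vit-4*, from -0.25 to 0.12 for *vit-5* and from -0.0860 to 0.24 for *vit-6*, none called. The cause of these shifts was not tested.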
